A study of Mus musculus with 200 samples.

Results

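The 10 genes described here mark early cartilage: *Sox9*, *Col2a1*, *Col11a1*, *Col9a1*, *Col9a2*, *Col9a3*, *Acan*, *Matn1*, *Matn4* and *Mia1*. They were taken by symbol from the 22033 genes in the tables of read counts and allele votes, and all 10 were present. The set was chosen with earlier results of these data known, so comparisons with all genes below describe it and do not test it independently. They were measured with 3SEQ, an RNA sequencing method that reads the 3′ ends of poly(A)+ transcripts, in single whole mouse embryos at E11.5, freed of membranes and placenta and not treated. The parents were C57BL/6J (B6) and CAST/EiJ (Cast, written CastEi/J in the labels), a strain of another mouse subspecies. The F1 embryos, with the mother named first, were 8 B6xCast embryos from 2 litters and 8 CastxB6 embryos from 2 other litters. The N2 embryos came from backcrosses of F1 animals to B6, 89 with a B6 mother and an F1 father (17 litters) and 65 with an F1 mother and a B6 father (12 litters). Since the F1 parents all had a B6 mother, every N2 embryo carried B6 mitochondria and was either B6/B6 or B6/Cast at each autosomal gene. Stage was recorded as the number of somites, the paired blocks of mesoderm that form along the trunk one after another, from 41 to 63 in F1 and from 42 to 57 in N2 embryos. Because whole embryos were homogenized, a change in the number of cartilage cells and a change in RNA per cell cannot be told apart in any value below.

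Cartilage starts as condensations of mesenchyme in limb buds, vertebrae, ribs and head. SOX9 is the transcription factor that commits these cells to the cartilage fate and drives genes of their matrix. That matrix is a network of thin fibrils made of collagen II with collagen XI, coated by collagen IX, which holds the large proteoglycan aggrecan. Matrilins link these networks, and *Mia1* encodes a small protein secreted by chondrocytes. Some members are also used elsewhere: SOX9 acts in neural progenitors, gonad and gut, and collagens II, IX and XI are made in notochord, eye and inner ear.

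On mm9, *Sox9* lies at chr11:112643538-112649074 and *Col2a1* at chr15:97806033-97835155. The collagen XI gene *Col11a1* spans chr3:113733458-113923636. The 3 collagen IX genes are on separate chromosomes, *Col9a1* at chr1:24184449-24259577, *Col9a2* at chr4:120711990-120727927 and *Col9a3* at chr2:180332495-180356894. *Acan* is at chr7:86198369-86259985 and *Mia1* on the same chromosome at chr7:27953449-27966176. *Matn1* lies at chr4:130500300-130511390 and *Matn4* at chr2:164215129-164230660. The span of *Mia1* overlaps *Rab4b* over 10467 bp and also *AC157553.1*, both on the same strand. *Col9a3* overlaps *Tcfl5* over 234 bp and *Matn4* overlaps *Rbpjl* over 2020 bp, both on the opposite strand. These are GENCODE spans, and the gene models behind the deposited counts were not examined. Whether reads were counted by strand is not given in the sources used here.

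The RefSeq promoter table (GRCm38.p6) held 9 promoters of 7 members. *Col2a1*, *Col9a3* and *Sox9* were not among them. The 250 bases before the transcription start are printed 5′ to 3′ for the 4 members that rose with stage and have a single start in that table, with each CG dinucleotide, where DNA methylation occurs, in capitals. They are shown because these 4 genes rose with somite number in N2 embryos while their promoters differ in base composition. *Matn1* rose in a fit without the minimum level given below, and *Col9a2* did not rise between the CastxB6 litters.
Mia1: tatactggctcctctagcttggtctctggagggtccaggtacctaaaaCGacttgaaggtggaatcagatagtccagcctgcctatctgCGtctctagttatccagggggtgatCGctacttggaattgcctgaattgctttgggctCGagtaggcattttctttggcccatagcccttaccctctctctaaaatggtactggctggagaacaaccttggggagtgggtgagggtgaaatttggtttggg
Acan: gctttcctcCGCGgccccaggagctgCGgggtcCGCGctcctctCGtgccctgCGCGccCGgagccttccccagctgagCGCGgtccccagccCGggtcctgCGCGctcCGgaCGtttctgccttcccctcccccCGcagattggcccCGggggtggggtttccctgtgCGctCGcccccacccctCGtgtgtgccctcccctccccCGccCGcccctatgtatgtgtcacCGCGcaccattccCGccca
Matn1: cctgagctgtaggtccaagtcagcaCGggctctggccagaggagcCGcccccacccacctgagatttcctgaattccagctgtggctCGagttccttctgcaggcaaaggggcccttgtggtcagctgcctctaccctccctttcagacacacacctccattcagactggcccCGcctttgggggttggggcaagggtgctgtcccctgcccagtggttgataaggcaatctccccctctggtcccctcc
Col9a2: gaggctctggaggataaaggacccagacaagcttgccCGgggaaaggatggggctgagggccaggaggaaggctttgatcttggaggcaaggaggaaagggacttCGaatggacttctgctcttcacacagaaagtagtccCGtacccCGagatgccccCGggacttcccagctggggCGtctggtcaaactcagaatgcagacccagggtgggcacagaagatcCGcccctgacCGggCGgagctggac
On GRCm38.p6 the *Mia1* sequence is chr7:27181150-27181399 on the minus strand, and the plus strand holds *Acan* at chr7:79052976-79053225, *Matn1* at chr4:130944135-130944384 and *Col9a2* at chr4:121039316-121039565. The *Acan* sequence held 26 CG dinucleotides and 74.4% G or C. *Col9a2* held 9 and 60.4%, *Matn1* held 4 and 62%, and *Mia1* held 4 and 50.4%. The median of all promoters in the table was 6 CG dinucleotides and 52.4% G or C, so that *Acan* was rich in both and *Mia1* near the median. Forms of the DNA core bound by SOX factors were searched on both strands. ACAAAG was held by 16.5% of all 32851 promoters listed. A share of 10.7% held ACAATG, which can overlap the form AACAAT, held by 9.42%. At least 1 of these forms was in 29.6% of all promoters and in 0 of the 9 member promoters. The motif TATAAA was in 12.4% of all and in 0 of the 9. These letters were searched only in this window.

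Between 15703888 and 38234229 reads per F1 embryo and between 245220 and 5370322 per N2 embryo fell on genes (N2 median 2297773). Levels are in RPM (reads per 1000000 of this total), and at the median N2 depth 0 reads allow up to 1.31 RPM (3 reads). Of the N2 embryos with genotypes, 147 of 154 had a somite number. Their 14 sequencing lanes, A to N, held B6 mothers alone in 8 lanes, F1 mothers alone in 5 and both in 1 lane, so mother and lane cannot be told apart. Lanes held 48.3% of the variance in somite number and litters 79.7%. Of the 13 embryos with the fewest reads, 8 were in lane J. Markers of erythroid cells, liver, heart, muscle and neurons were found at the levels of a whole embryo, *Hbb-y* from 21023 to 142857 RPM and *Tnnt2* from 138.5 to 640.5 in N2. Of 9 placenta and trophoblast markers, *Prl3d1*, *Prl2c2* and *Psg18* were at 0 in all embryos and the others had N2 medians of at most 1.09 RPM.

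The first question was how each gene changed with stage in the N2 embryos, the larger set. Transcripts of the matrix and secreted genes *Mia1*, *Matn4*, *Acan*, *Col9a3* and *Col9a2* rose with somite number, within sequencing lanes as well as across them. *Sox9* and *Col9a1* showed no rise. *Col2a1* rose across all embryos but not within lanes. Ranks of RPM and somite number were correlated over the 147 embryos (Spearman's rho, Benjamini-Hochberg q under 0.05) for the 10007 genes that averaged 5 RPM or more. The correlation was positive past the threshold in 6 of the 9 members tested, beside 14.1% of all genes tested. No member fell, beside 7.97% of all. The median rho was 0.35 over the 9 members and -0.02 over all genes tested. Since the members were chosen with earlier results known, these shares are no independent test. *Matn1*, with a mean of 0.855 RPM, was below the minimum and was fitted in addition without it.

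*Sox9*, the regulator, ran from 15.2 to 161.3 RPM with a median of 37.1 in the 21 embryos of 45 or fewer somites. At 46 to 49 somites (58 embryos) the median was 39.3 (17.5 to 208.8), at 50 to 52 (54 embryos) it was 50.1 (17.4 to 189.3) and at 53 or more (14 embryos) it was 39.7 (17.2 to 153.9). These 4 ranges lay over one another almost entirely. Its rho with somite number was 0.06 (q = 0.634). Per somite within lanes, *Sox9* changed by -0.003 ± 0.018 on the log2 scale (SE, edgeR with lane as a factor, adjusted p = 0.956), with a 95% interval from -0.038 to 0.032.

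*Col2a1*, the chain of collagen II, ran from 398.5 to 1081 RPM with a median of 588.1 at 45 or fewer somites. Its median was 667.0 at 46 to 49 somites (344.9 to 1110), 791.4 at 50 to 52 (392.7 to 1131) and 932.6 at 53 or more (528.5 to 1414). Each median was above the one before it, with ranges that overlapped throughout. Its rho was 0.35 (q = 0.000325), and 0.16 with lane regressed out of both ranks (q = 0.233). The edgeR slope within lanes was 0.01 ± 0.01 per somite (adjusted p = 0.609, 95% interval -0.010 to 0.030). Without the lane term the slope was 0.05 (adjusted p = 0.0074). Lanes held 74.8% of the variance in the ranks of *Col2a1*, with lane medians from 431.5 to 1021 RPM, so its correlation with stage and the differences between lanes cannot be told apart.

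*Col11a1*, a chain of collagen XI, had medians of 24, 30.1, 32.6 and 43 RPM in the same 4 somite classes. The lowest embryo had 1.66 RPM, at 45 or fewer somites, and the highest had 252.6, at 53 or more. Its rho was 0.15 (q = 0.174) and its slope 0.06 ± 0.03 per somite (adjusted p = 0.132, 95% interval 0.010 to 0.116). The rise of its medians was not past the threshold. Leaving out lane G or lane K brought rho to 0.21 (q = 0.0485) and 0.24 (q = 0.0436), and leaving out lane F brought the slope to 0.08 (adjusted p = 0.0277).

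The 3 chains of collagen IX, the collagen on the fibril surface, differed among themselves. *Col9a2* had a median of 17.9 RPM at 45 or fewer somites (4.41 to 62.2), 24.5 at 46 to 49 (6.53 to 93.3), 44.3 at 50 to 52 (8.96 to 91.7) and 42.7 at 53 or more (16.3 to 81.6). *Col9a3* had 14.7 (5.29 to 36.5), 15.6 (2.10 to 74.8), 22.2 (3.44 to 97.5) and 29.7 (4.08 to 75.9) RPM. Both were higher in the 2 later classes, with overlap. *Col9a1* had medians of 4.91, 4.09, 4.66 and 3.71 RPM, with single embryos from 0.331 to 75.3, and showed no order by stage.

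In the model with lanes, *Col9a3* rose by 0.18 ± 0.02 per somite (adjusted p = 1.62e-09, 3.42-fold per 10 somites) and *Col9a2* by 0.09 ± 0.02 (adjusted p = 3.02e-05, 1.93-fold per 10 somites). Their rho across embryos was 0.31 (q = 0.00149) and 0.41 (q = 6.82e-06). *Col9a1* had a slope of 0.02 ± 0.03 (adjusted p = 0.793) and a rho of -0.03 (q = 0.840). *Tcfl5*, the gene that meets the end of *Col9a3*, had a mean of 0.269 RPM. In lanes J to N the embryo medians of *Col9a1* were 11.7 to 47.6 RPM, against 1.79 to 3.66 in lanes A to I, and lanes held 72.1% of the variance in its ranks. *Sox9* showed the same division, with lane medians of 66.2 to 141.3 RPM in lanes J to N against 25.4 to 45.2 in lanes A to I. For *Col11a1* the lane medians were 34.5 to 82.8 and 15.3 to 33.4 RPM. Those of *Col9a3* were 32.5 to 69.6 RPM in lanes K to N, 6.84 in lane J and 11 to 25.6 in lanes A to I. *Col2a1* was lower in lanes K to N (431.5 to 616.8 RPM), with 831.3 in lane J and 544.5 to 1021 in lanes A to I. Lanes J, K and N held B6 mothers, L held F1 mothers and M both. By the labels lanes A to G were on flowcell 1 and lanes H to N on flowcell 2. This division was noticed in the values and its cause was not tested.

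*Acan* encodes aggrecan, the proteoglycan that gives cartilage its resistance to compression. Its median was 2.32 RPM at 45 or fewer somites (0 to 6.54), 3.82 at 46 to 49 (0.957 to 13.8), 6.67 at 50 to 52 (1.90 to 17.5) and 10.1 at 53 or more (0 to 24.3). The embryo at 0 in the oldest class had 55 somites and 245220 reads in lane J, a depth at which 0 reads allow up to 12.2 RPM. Its rho was 0.61 (q = 8.02e-14) and its slope 0.19 ± 0.03 per somite (adjusted p = 2.59e-09), 3.83-fold per 10 somites.

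The matrilins, adaptor proteins between matrix networks, rose as well. *Matn4* had a median of 1.79 RPM at 45 or fewer somites (0 to 12.3), 4.37 at 46 to 49 (0.419 to 41.5), 9.03 at 50 to 52 (2.14 to 38.3) and 11.5 at 53 or more (5.48 to 36.7). The lowest embryo of the oldest class was above the medians of the 2 youngest classes. Its rho was 0.69 (q = 3.58e-19) and its slope 0.25 ± 0.03 per somite (adjusted p = 1.56e-11), 5.65-fold per 10 somites. *Matn1* had medians of 0, 0.288, 0.942 and 2.12 RPM in the 4 classes. It had 0 reads in 15 of 21, 28 of 58, 11 of 54 and 5 of 14 of these embryos. In the fits without a minimum its rho was 0.46 (q = 3.15e-07) and its slope 0.33 ± 0.06 per somite (adjusted p = 3.84e-06), at levels where 1 embryo rests on a few reads.

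*Mia1* had the smallest p of all 10007 genes tested for a correlation with somite number. Its median was 7.40 RPM at 45 or fewer somites (3.17 to 17.7), 10.2 at 46 to 49 (2.16 to 45.8), 24.9 at 50 to 52 (9.87 to 69.8) and 36.7 at 53 or more (0 to 70.9). Apart from the embryo of lane J with 245220 reads, which had none of *Mia1*, the embryos of the oldest class were above the median of the 46 to 49 class. Its rho was 0.78 (q = 5.98e-27) and its slope 0.29 ± 0.03 per somite (adjusted p = 1.22e-18), 7.58-fold per 10 somites. *Rab4b*, which shares its strand and 10467 bp with *Mia1*, did not pass in N2, at a median of 93.7 RPM, a rho of 0.05 (q = 0.680) and a slope of -0.02 ± 0.01 (adjusted p = 0.353).

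**Figure D1:**
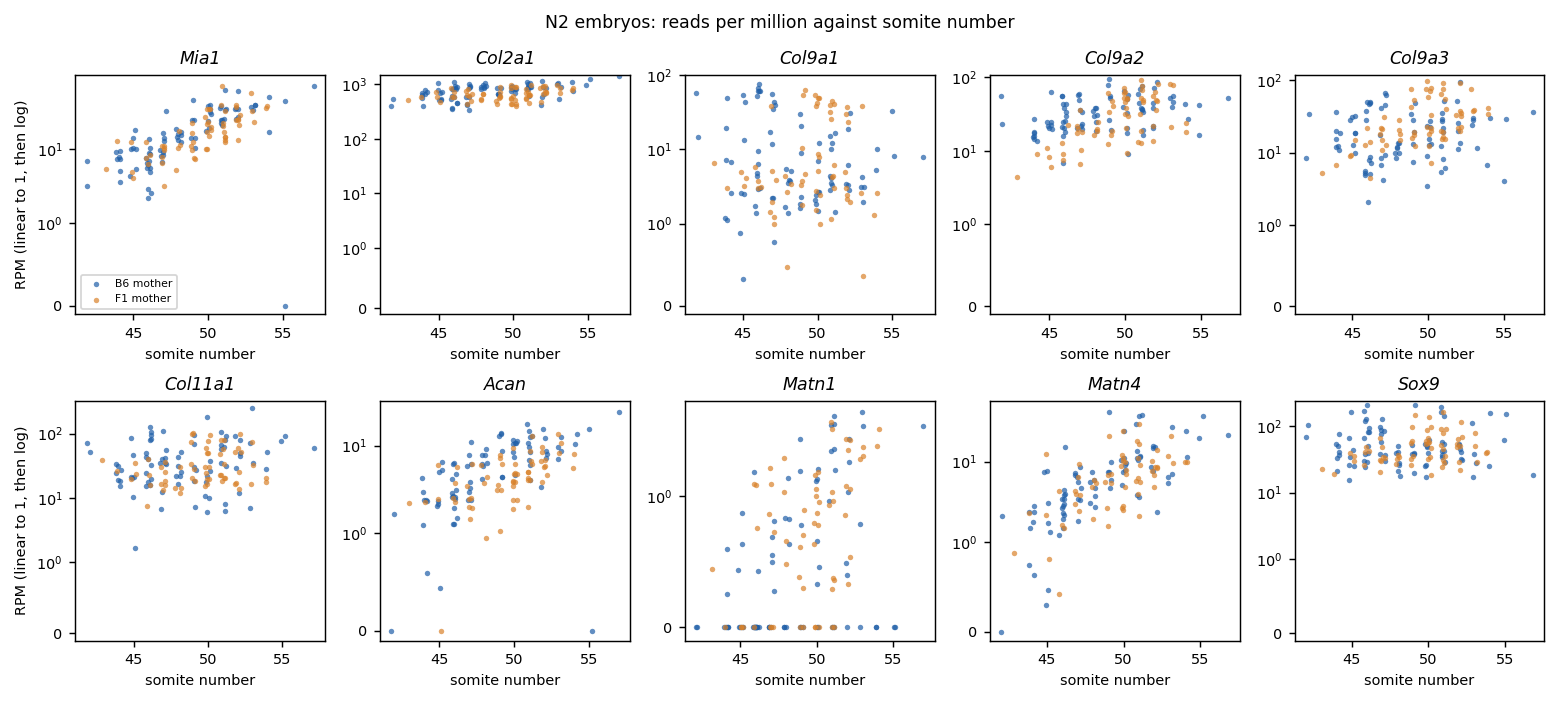
RPM of each member against somite number in the 147 N2 embryos, with B6 mothers in blue and F1 mothers in orange; the vertical axis is linear up to 1 RPM and logarithmic above, and points are spread slightly sideways. *Mia1*, *Matn4* and *Acan* climb across the axis, *Col9a1* and *Sox9* do not, and *Matn1* has many embryos at 0.

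The correlations were repeated inside lanes, litters and mothers, since embryos of 1 litter share a mother, a stage and usually a lane. With B6 mothers alone 5 members rose (16.8% of all genes) and with F1 mothers alone 6 (20.3% of all genes). *Col9a3* had a rho of 0.07 with B6 mothers (q = 0.587) and 0.49 with lane regressed out as well (q = 0.000471). With lane regressed out over all embryos, 5 of the 9 members rose (8.5% of all genes), *Mia1* with a rho of 0.73, *Matn4* 0.62, *Acan* 0.50, *Col9a3* 0.48 and *Col9a2* 0.38. The correlation within single lanes was positive in 13 of 14 lanes for *Mia1*, *Acan* and *Matn4*, in 12 for *Col9a2*, 11 for *Col9a3*, 10 for *Col2a1*, *Col11a1* and *Matn1*, 8 for *Sox9* and 6 for *Col9a1*. The lane with a negative *Mia1* value was E, where embryos had 43 to 48 somites, and those for *Acan* and *Matn4* were J and M. With litter regressed out, 4 members rose (1.63% of all genes), *Mia1* (0.60), *Acan* (0.48), *Matn4* (0.44) and *Col9a3* (0.33). Over the means of the 29 litters 3 rose (1.6% of all genes), *Matn4* (0.79), *Mia1* (0.76) and *Acan* (0.64). With lane regressed out inside F1 mothers *Acan* had a rho of 0.41 (q = 0.0526). Litters are shared by several embryos, so p-values over embryos take them as more independent than they are.

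In the edgeR model with lane as a factor the same 5 members rose as in the ranks with lane regressed out, and 5.47% of all genes rose. None fell, beside 4.76% of all genes. The median slope was 0.09 per somite over the 9 members and -0.004 over all genes. With litter in place of lane the slopes of *Mia1* (0.24 ± 0.04), *Acan* (0.24 ± 0.04), *Matn4* (0.25 ± 0.05) and *Col9a3* (0.16 ± 0.04) stayed past the threshold, beside 0.809% of all genes, and that of *Col9a2* did not (0.06 ± 0.03, adjusted p = 0.363). With litter as a random block in limma voom the 5 members were called again, beside 4.66% of all genes.

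Slopes were compared between mothers with an interaction term, again with lane as a factor. No member differed past the threshold, and 1 of the 10007 genes did (0.00999%). *Mia1* rose by 0.30 ± 0.03 per somite with B6 mothers and 0.29 ± 0.05 with F1 mothers, and *Matn4* by 0.25 ± 0.04 and 0.24 ± 0.05. *Acan* rose by 0.22 ± 0.03 with B6 mothers, and its slope with F1 mothers, 0.13 ± 0.05, did not pass (adjusted p = 0.137). The difference of the *Acan* slopes was 0.11 ± 0.06 (p = 0.0593, adjusted p = 0.823). The largest difference was that of *Col9a1*, at 0.09 ± 0.04 with B6 mothers and -0.14 ± 0.05 with F1 mothers (difference 0.19 ± 0.07, p = 0.00435, adjusted p = 0.688).

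**Figure D2:**
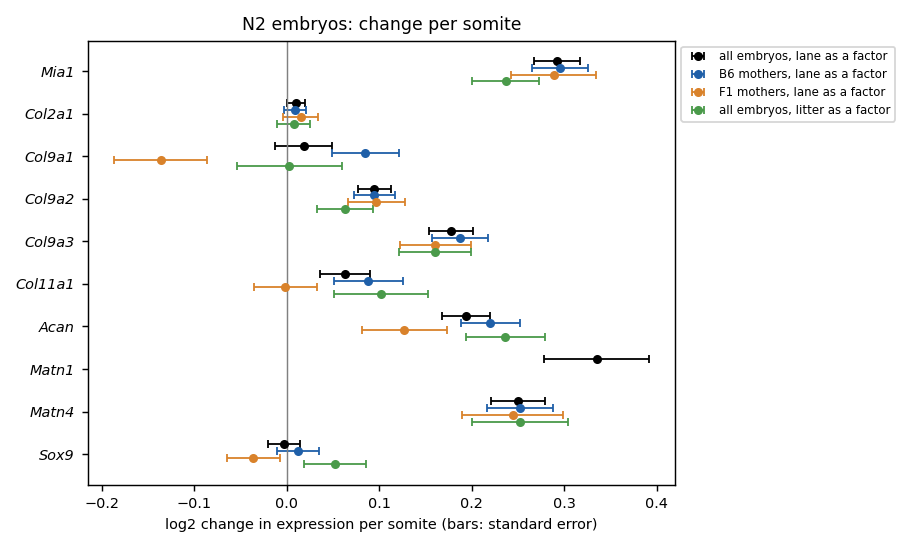
Log2 change per somite of each member in N2 embryos (points, with standard errors), from edgeR fits of all embryos with lane as a factor, of each kind of mother alone, and of all embryos with litter as a factor; *Matn1* is from the fit without a minimum level. *Mia1*, *Matn4*, *Acan*, *Col9a3* and *Col9a2* lie to the right of 0 in each of the 4 fits, and *Col2a1* lies near 0 in each.

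The same genes were then followed in the F1 embryos. Here stage and litter cannot be told apart: the CastxB6 embryos were litter 1 (41 to 43 somites, 4 embryos) and litter 2 (46 to 48, 4 embryos), and the B6xCast embryos litter 5 (48 to 50, 5 embryos) and litter 3 (58 to 63, 3 embryos), with no somite number for 3 of the 16. By the labels CastxB6 litter 2 was sequenced in the runs hs1 and hs2 and the other 3 litters in gaIIx and hs1, so between the CastxB6 litters stage cannot be told apart from run either. Both B6xCast litters had the same runs. P-values measure the spread between embryos of a litter, which share a mother. In the oldest litter *Mia1*, *Acan*, *Col9a3* and *Col9a2* were higher than in the other litter of that cross, and *Matn1* and *Matn4* in the fit without a minimum. In the CastxB6 litters *Mia1* and *Acan* rose again, while *Col9a2* and *Col9a3* did not differ past the threshold and *Col11a1* and *Col9a1* rose.

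*Mia1* was at 2.26, 2.57, 2.18 and 2.48 RPM in CastxB6 litter 1 and at 6.17, 7.31, 8.97 and 10.9 in litter 2. In B6xCast litter 5 it was at 17.2, 14.7, 29.5, 15.3 and 12.3 RPM, and in litter 3 at 78.5, 60.5 and 77.1. The 4 litters did not overlap and stood in the order of their stages. *Acan* was at 1.19, 1.91, 2.20 and 2.35 RPM, then 2.83, 2.84, 3.60 and 3.86, then 8.57, 7.17, 11.8, 7.78 and 6.60, and in litter 3 at 27, 25.6 and 32.4. Its litters, too, were apart from one another in the order of stage. Of all 9728 genes, 21.9%, 6.71% and 25% had the later of 2 neighbouring litters wholly above the earlier, from the youngest pair to the oldest. The share with all 4 litters apart was not counted. *Matn1* was between 0.0290 and 0.105 RPM in CastxB6 litter 1 (1 to 4 reads), between 0.417 and 0.887 in litter 2, between 0.813 and 2.80 in B6xCast litter 5 and between 11.5 and 13.6 in litter 3. *Matn4* was between 0.116 and 0.392 RPM, 1.70 and 3.44, 2.17 and 4.90, and 9.23 and 15.2 in the same order. For both matrilins the litters of 1 cross were apart, and litters 2 and 5 overlapped.

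*Col9a3* was between 8.21 and 11.7 RPM in CastxB6 litter 1 and between 7.93 and 14.8 in litter 2, which overlapped. In B6xCast litter 5 it was at 28.3, 28.3, 35.5, 29.8 and 23.5 RPM and in litter 3 at 81.7, 88.3 and 100.6, each above all embryos of the younger litters. *Col9a2* was between 26.3 and 38 RPM in both CastxB6 litters, between 39.3 and 62.6 in litter 5 and between 90.8 and 104.1 in litter 3. *Tcfl5* rose from a litter mean of 0.305 to 1.15 RPM between litters 5 and 3. *Col9a1* stayed between 2.87 and 8.38 RPM in all 16 embryos, below the lane medians of lanes J to N of the N2 set.

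In B6xCast, litter 3 against litter 5, 4 of the 8 members tested were higher (edgeR, adjusted p under 0.05, 7.52% of 9728 genes). *Mia1* differed by 1.90 ± 0.24 on the log2 scale (adjusted p = 0.000307, 3.74-fold), *Acan* by 1.65 ± 0.20 (adjusted p = 0.000245, 3.13-fold), *Col9a3* by 1.52 ± 0.17 (adjusted p = 0.000162, 2.86-fold) and *Col9a2* by 0.81 ± 0.13 (adjusted p = 0.00160, 1.75-fold). None was lower, beside 8.43% of all genes. Not past the threshold were *Col11a1* (0.52 ± 0.19, adjusted p = 0.0712), *Col2a1* (0.31 ± 0.13, adjusted p = 0.128), *Sox9* (-0.34 ± 0.19, adjusted p = 0.247) and *Col9a1* (0.07 ± 0.16, adjusted p = 0.786). *Col2a1* was at 1068 to 1381 RPM in litter 3 and 706.8 to 1004 in litter 5. With it, 5 of the 8 members had a litter 3 wholly above litter 5, beside 25% of all genes. Its fold depended on the scaling, since with total counts in place of TMM its difference was 0.43 (adjusted p = 0.0348) and that of *Col11a1* 0.63 (adjusted p = 0.0417). In the fit without a minimum *Matn1* differed by 2.95 ± 0.29 (adjusted p = 3.79e-05) and *Matn4* by 1.66 ± 0.29 (adjusted p = 0.00203).

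In CastxB6, litter 2 against litter 1, 4 of 8 members were higher (19.2% of 9728 genes). *Mia1* differed by 1.75 ± 0.25 (adjusted p = 0.000217, 3.36-fold), *Col11a1* by 0.93 ± 0.19 (adjusted p = 0.00172, 1.90-fold), *Acan* by 0.72 ± 0.22 (adjusted p = 0.0170, 1.65-fold) and *Col9a1* by 0.60 ± 0.16 (adjusted p = 0.00844, 1.52-fold). None was lower, beside 16.6% of all genes. The same 4 had a litter 2 wholly above litter 1, beside 21.9% of all genes. *Col9a2* (-0.04 ± 0.13), *Col9a3* (0.05 ± 0.17), *Col2a1* (-0.08 ± 0.13) and *Sox9* (-0.18 ± 0.19) did not pass. Without the minimum *Matn4* differed by 2.85 ± 0.36 (adjusted p = 9.31e-05) and *Matn1* by 2.75 ± 0.49 (adjusted p = 0.000998). *Acan* lost its call when embryo 6 of litter 2 was left out (0.61, adjusted p = 0.0608).

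The reciprocal crosses were compared in the litters of nearest stage, B6xCast litter 5 against CastxB6 litter 2, which differ at once in mother, litter, somite number and sequencing runs (gaIIx and hs1 for litter 5, hs1 and hs2 for litter 2). Of the 8 members tested, 5 were higher in B6xCast (7.55% of 9728 genes). *Col9a3* differed by 1.51 ± 0.17 (adjusted p = 0.000190), *Acan* by 1.37 ± 0.20 (adjusted p = 0.00138), *Mia1* by 1.11 ± 0.23 (adjusted p = 0.00710), *Col9a2* by 0.71 ± 0.13 (adjusted p = 0.00323) and *Col2a1* by 0.47 ± 0.12 (adjusted p = 0.0195). These 5 did not overlap between the litters, beside 6.71% of all genes. None was lower, beside 8.63%. *Col2a1* lost its call without embryo 5 of B6xCast litter 5 (0.43, adjusted p = 0.0535) or without embryo 2 of CastxB6 litter 2 (0.45, adjusted p = 0.0575). *Rab4b*, the gene that overlaps *Mia1*, was also higher in B6xCast, at 104.7 to 121.8 RPM against 95.8 to 100.5 (0.24 ± 0.07, adjusted p = 0.0396). It did not pass in the contrasts by stage, with 0.14 ± 0.08 between the CastxB6 litters (adjusted p = 0.188, no overlap) and -0.10 ± 0.08 between the B6xCast litters (adjusted p = 0.443). *Sox9* (-0.20 ± 0.18), *Col11a1* (-0.34 ± 0.17) and *Col9a1* (0.04 ± 0.15) did not pass.

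**Figure D3:**
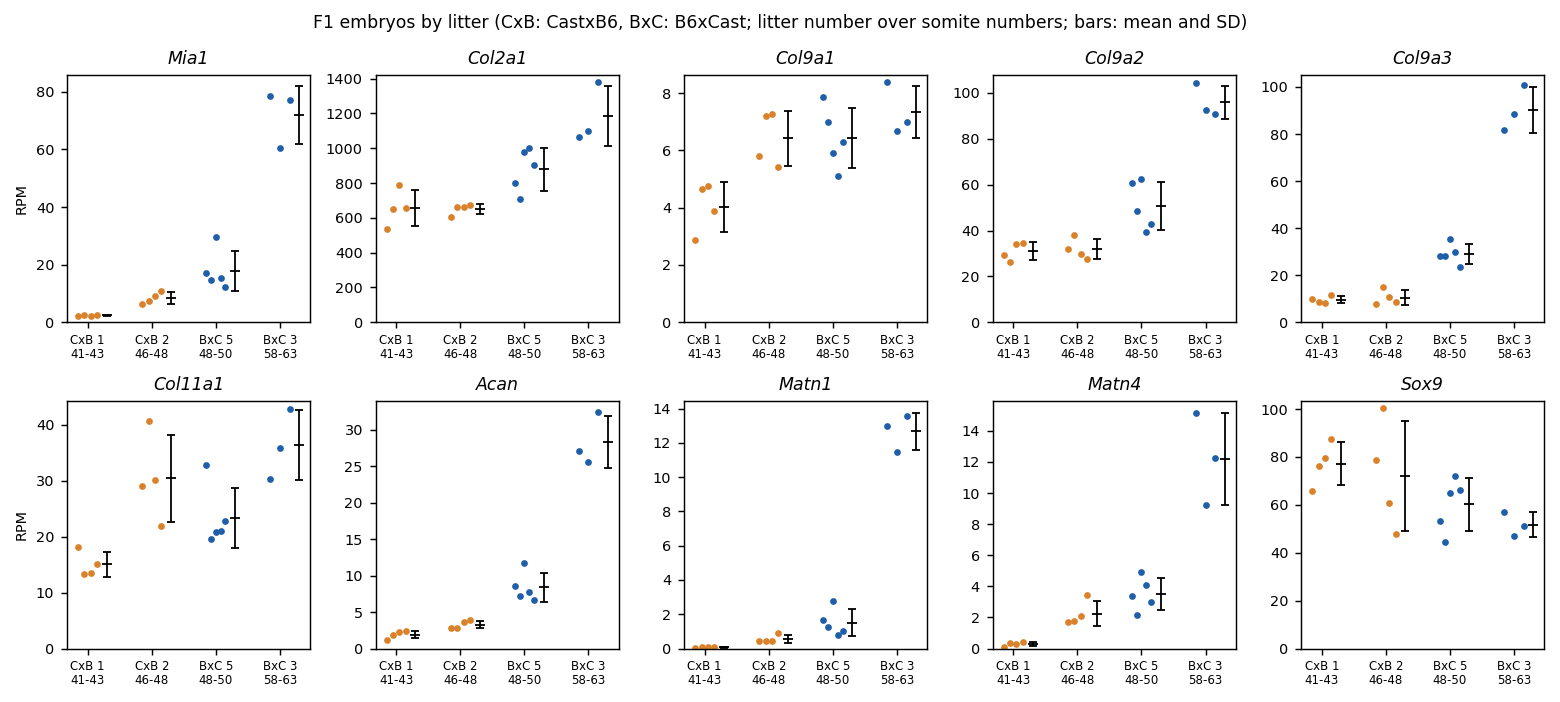
RPM of each member in the 16 F1 embryos, by litter in the order of somite number, with each litter's mean and SD beside its points (CastxB6 in orange, B6xCast in blue; 4, 4, 5 and 3 embryos). The 4 litters of *Mia1* and of *Acan* do not overlap, while for *Sox9* neighbouring litters overlap.

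Across F1 and N2, then, *Mia1* and *Acan* passed in each of the 3 comparisons by stage (N2 slope, B6xCast litters, CastxB6 litters), and *Sox9* and *Col2a1* in none of them. *Col9a2* and *Col9a3* passed in the N2 slope and in the B6xCast litters. *Matn4* passed in the N2 slope, and *Matn4* and *Matn1* passed in the others with the minimum level removed.

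The mother's genotype was tested in the N2 embryos with the Mann-Whitney test (154 embryos, Bonferroni p under 0.01 over 9733 autosomal genes). No member was called, beside 5.03% of all genes (0.75% higher with B6 mothers, 4.28% with F1 mothers). *Col2a1* was at 778.8 ± 217.9 RPM (SD, n = 89) with B6 mothers and 667.8 ± 161.0 (n = 65) with F1 mothers (p = 0.00110, Bonferroni 1). *Col9a3* was at 21.7 ± 16.6 and 31.8 ± 23.7 RPM (p = 0.00312, Bonferroni 1). Both pairs of groups overlapped widely. *Acan*, at 6.85 ± 4.70 RPM with B6 mothers and 4.92 ± 2.76 with F1 mothers, came nearest to a call when somite number was regressed out (Bonferroni p = 0.0336). Over litter means the smallest p of these 3 genes was 0.127.

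Coexpression of the members was described across the same 147 N2 embryos, which share lanes, litters and stages, so no p is given. Over the 45 pairs of members the median Spearman rho of RPM was 0.34 and 37 pairs were above 0, against a median of 0.06 and 54.8% above 0 over all pairs of genes tested. Within this set 2 groups stood out. In the first were *Mia1* with *Acan* (0.69), *Mia1* with *Matn4* (0.69) and *Acan* with *Matn4* (0.64), all rising with stage. In the second were *Col9a1* with *Sox9* (0.71), *Col9a1* with *Col11a1* (0.65) and *Col11a1* with *Sox9* (0.56), the genes with high medians in lanes J to N. *Col2a1* ran against 4 other members, *Col9a1* (-0.38), *Col9a3* (-0.35), *Sox9* (-0.31) and *Col11a1* (-0.17). With lane regressed out these were 0.06, -0.04, 0.0003 and 0.06, so that they were not seen within lanes.

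With lane and somite number regressed out the median over member pairs fell to 0.13, with 30 of 45 pairs above 0, against 0.05 and 58.1% over all gene pairs. A rho above 0.3 was left in 10 of 45 pairs, against 13.9% of all pairs. With litter in place of lane it was left in 5 of 45, against 15.8% of all pairs. With lane the highest was that of the partner chains *Col9a2* and *Col9a3* (0.48). *Col9a2* with *Matn1* (0.42), *Mia1* with *Matn1* (0.42), *Col9a1* with *Sox9* (0.39), *Col9a2* with *Acan* (0.36), *Mia1* with *Matn4* (0.35) and *Mia1* with *Acan* (0.34) followed. With litter the order changed, with *Col9a1* and *Sox9* highest (0.49), then *Col9a2* and *Col9a3* (0.44), *Col9a1* and *Col11a1* (0.40), *Col11a1* and *Sox9* (0.40) and *Mia1* and *Acan* (0.34), and *Col9a2* with *Matn1* fell to 0.23 and *Mia1* with *Matn4* to 0.22. With lane the lowest was *Mia1* with *Col9a1* (-0.25). *Col9a1* with its partner chain *Col9a2* was at -0.02 and with *Col9a3* at 0.21. *Mia1* had the highest median with the other members (0.30), then *Acan* (0.27), *Col9a3* (0.25) and *Matn1* (0.25), and *Col9a1* the lowest (-0.02).

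Among genes outside the set, those whose median rho with the 10 members was highest after lane and somite number were regressed out were *Eln* (0.33), *Tgfb3* (0.32), *Neurod2* (0.32), *Npy* (0.31), *Tmem150a* (0.31), *Ablim3* (0.31), *Mapt* (0.30), *Anxa6* (0.30), *Chrng* (0.29) and *Hic1* (0.28). *Eln* encodes elastin and *Tgfb3* a signalling protein of the TGF-beta family. *Neurod2*, *Npy* and *Mapt* are genes of neurons, and *Chrng* encodes a subunit of the acetylcholine receptor of embryonic muscle. All 10 also rose with somite number (rho 0.28 to 0.72), and their likeness covers the 147 embryos.

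**Figure D4:**
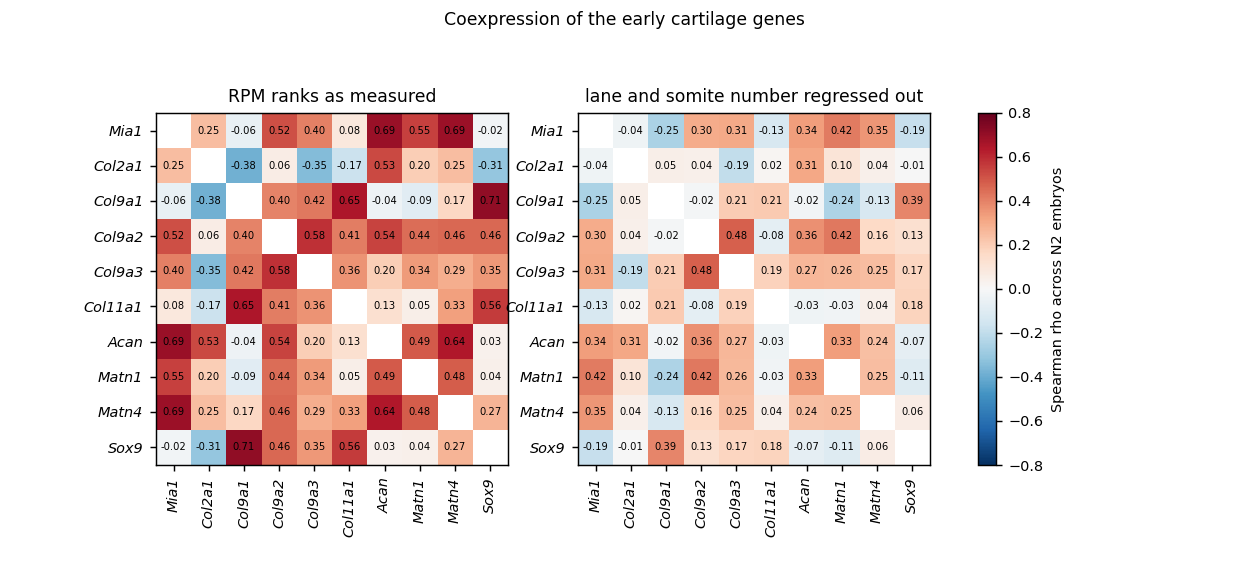
Spearman rho of each pair of members over the 147 N2 embryos, as measured at left and with lane and somite number regressed out at right (red above 0, blue below 0). *Col9a1* with *Sox9* falls from 0.71 to 0.39 between the panels, *Mia1* with *Acan* from 0.69 to 0.34 and *Col9a2* with *Col9a3* from 0.58 to 0.48.

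Other gene lists of the skeleton and of neighbouring tissues were set beside the members, in the N2 slopes within lanes (5.47% of all genes rose and 4.76% fell). Of 20 regulators of cartilage formation 11 were tested and 4 rose, with a list median of 0.01 per somite. They were *Gdf5*, a joint and cartilage growth factor (0.20 ± 0.03), *Nog*, an inhibitor of BMP signalling (0.11 ± 0.04), *Barx2*, a homeobox factor (0.10 ± 0.03), and *Wwp2*, a ubiquitin ligase (0.04 ± 0.01). Of 20 other cartilage matrix and secreted genes only 6 were tested and 2 rose, *Col27a1* (0.09 ± 0.02), a fibrillar collagen of cartilage, and *Fmod* (0.07 ± 0.02), which encodes fibromodulin. *Hapln1*, the link protein of aggrecan, had a slope of -0.09 ± 0.04 (adjusted p = 0.107). Of 12 genes of sclerotome and somite mesoderm 9 were tested and 1 fell, *Tcf15*, a factor of the young somite (-0.10 ± 0.02, adjusted p = 3.95e-07).

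Of 8 tendon and perichondrium genes 5 were tested and 2 rose, *Tnc* (0.11 ± 0.03) and *Dcn* (0.09 ± 0.03), genes of matrix around cartilage and tendon. Of 14 genes of hypertrophic cartilage and bone only *Mef2c* and *Alpl* reached the minimum. *Mef2c* rose by 0.06 ± 0.02 per somite (adjusted p = 0.0199) and *Alpl* changed by -0.006 ± 0.018 (adjusted p = 0.908). Of 10 general collagens 9 were tested, with a list median of 0.03, and *Col6a2* rose (0.15 ± 0.02) while *Col4a1*, of basement membranes, fell (-0.03 ± 0.01). In F1 the matrix gene *Lect1*, which encodes chondromodulin, was higher in B6xCast litter 3 than in litter 5 by 2.31 ± 0.19 on the log2 scale (adjusted p = 1.58e-05), 1 of 4 genes higher of the 5 tested in that list, and its difference between the CastxB6 litters was 0.22 ± 0.20 (adjusted p = 0.403).

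Lists for other tissues, among them places where members are also expressed, were read in the same fit. Of 8 eye and lens genes 6 were tested and 4 rose, led by the lens crystallins *Crybb1* (0.32 ± 0.04 per somite), *Cryaa* (0.30 ± 0.03) and *Cryba1* (0.26 ± 0.03). Of 8 markers of whole-embryo tissues 3 rose, *Alb* (0.22 ± 0.04) and *Afp* (0.12 ± 0.02) of liver and *Myog* (0.09 ± 0.02) of muscle. Of 8 genes listed for notochord only *Krt18* and *Krt19* were tested and both fell (-0.06 ± 0.01 each). Without lane in the test neither was called (rho -0.003 and 0.05). Their N2 means were 111.4 and 42.4 RPM, while *Noto* and *T* had a median of 0 RPM, so this fall cannot be read as one of notochord. Of 6 genes of neural crest and glia none of the 3 tested was called, with *Sox10* at -0.03 ± 0.02 (p = 0.0322, adjusted p = 0.172). The part of these tissues in the levels of the members was not tested.

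Last, the 2 alleles of each gene were compared. Each read over a SNP gave a vote for B6 or Cast, and the B6 allele fraction (BAF) is the share of votes for B6. *Mia1* had no votes. In the paired test over F1 and heterozygous N2 embryos (9084 genes, Bonferroni p under 0.01 and a BAF outside 0.45 to 0.55), no member was called, beside 19.1% of all genes (9.84% higher from B6). *Sox9*, with 20523 votes, had a pooled BAF of 0.50, as had *Col2a1* (212015 votes) and *Acan* (1031 votes). *Col9a1* had 0.479 (662 votes), *Matn4* 0.452 (660 votes), *Col9a2* 0.436 (1696 votes) and *Matn1* 0.426 (747 votes). *Col9a3* had 0.585 (1656 votes), with B6 higher in 37 and Cast higher in 17 of 58 embryos. Adjusted p was 1 for each of these 8. Genes tested had a median of 2382 votes, above those of *Acan*, the matrilins and the collagen IX genes. For these members the lack of a call does not show equal alleles.

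*Col11a1* had a BAF of 0.709 over 3848 votes, and B6 was higher in 71 and Cast in 16 of 91 embryos, with an adjusted p of 0.0105, just short of the threshold. It passed with a minimum of 50 votes (adjusted p = 0.00866) or 100 votes (adjusted p = 0.00713), which reduce the number of genes tested, and with the Benjamini-Hochberg adjustment (adjusted p = 4.91e-06). Of all genes tested 93.5% had a BAF nearer to 0.5. In B6xCast embryos its BAF was at 0.608, 0.857, 0.849, 0.765, 0.832, 0.647, 0.736 and 0.809. In CastxB6 it was at 0.941, 0.636, 0.708, 0.606, 0.414, 0.865, 0.667 and 0.513. B6 was the higher allele in 15 of the 16 embryos of both crosses, so it did not follow the parent.

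In heterozygous N2 embryos with at least 20 votes the BAF of *Col11a1* ran from 0.359 over a median of 0.540 to 0.952 (24 embryos), below most F1 values. The mean was 0.716 ± 0.143 (SD, n = 16) in F1 and 0.586 ± 0.165 (n = 24) in N2, a difference of 0.130 (permutation test, two-sided, p = 0.0159). The votes of *Col11a1* also varied against its reads: 1 read gave from 0.0629 to 0.342 votes in the F1 embryos. With votes and reads of all genes pooled in each embryo, 1 read gave 0.175 to 0.202 votes. A pooled ratio varies less than that of 1 gene, and the spread of other single genes was not examined. Across the 16 F1 embryos, votes per read and BAF had a Pearson r of 0.72 (permutation p = 0.00161) and a Spearman rho of 0.78 (permutation p = 0.000630). Without the 2 embryos farthest from the median r was 0.68, and within the crosses rho was 0.57 in B6xCast and 0.90 in CastxB6. This relation and the comparison of F1 with N2 were both chosen after their values were seen. Their permutation tests take embryos as independent, although embryos share litters and, in N2, lanes. In B6/B6 embryos 0.0265% of *Col11a1* votes were for Cast.

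Total expression was compared between heterozygous and B6/B6 N2 embryos at the gene itself (rank-sum test on log2(RPM + 0.5) with lane and somite number regressed out, q under 0.01, called in 18.2% of 9733 genes). *Col11a1* was called and the other 8 members tested were not. In the 75 B6/Cast embryos *Col11a1* ran from 6.14 to 252.6 RPM with a median of 40.1. In the 78 B6/B6 embryos it ran from 1.66 to 106.5 with a median of 21.7. The groups overlapped over all lanes together, and the median of heterozygotes was the higher one in 14 of 14 lanes, by 1.14 to 2.77 times. With a somite number, means were 55.6 ± 41.3 RPM (SD, n = 72) and 28 ± 19.2 (n = 74), a log2 difference of 0.67 ± 0.11 (SE, q = 1.44e-07).

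For *Col11a1* the 2 readouts differed in direction. If each B6 allele gave the same amount, the mean RPM of 55.6 and 28 would give heterozygotes a BAF of 0.252. These means had neither lane nor somite number regressed out. Heterozygous and B6/B6 embryos were spread unevenly over lanes (9 and 3 in lane K, 4 and 8 in lane N), so 0.252 also carries differences between lanes. The votes of *Col11a1* in heterozygous N2 embryos gave 0.595. Votes per read differed between lanes, from 0.0466 to 0.331 in heterozygotes, and were higher in B6/B6 embryos (0.286 over all lanes) than in heterozygotes (0.193). The BAF of heterozygotes differed as well, from 0.427 in lane M to 0.928 in lane D. The part of these in the contrast of the 2 readouts was not tested. The next smallest q among the members were those of *Acan* (0.29 ± 0.12 on that log2 scale, q = 0.0863) and *Mia1* (-0.22 ± 0.12, q = 0.111).

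**Figure D5:**
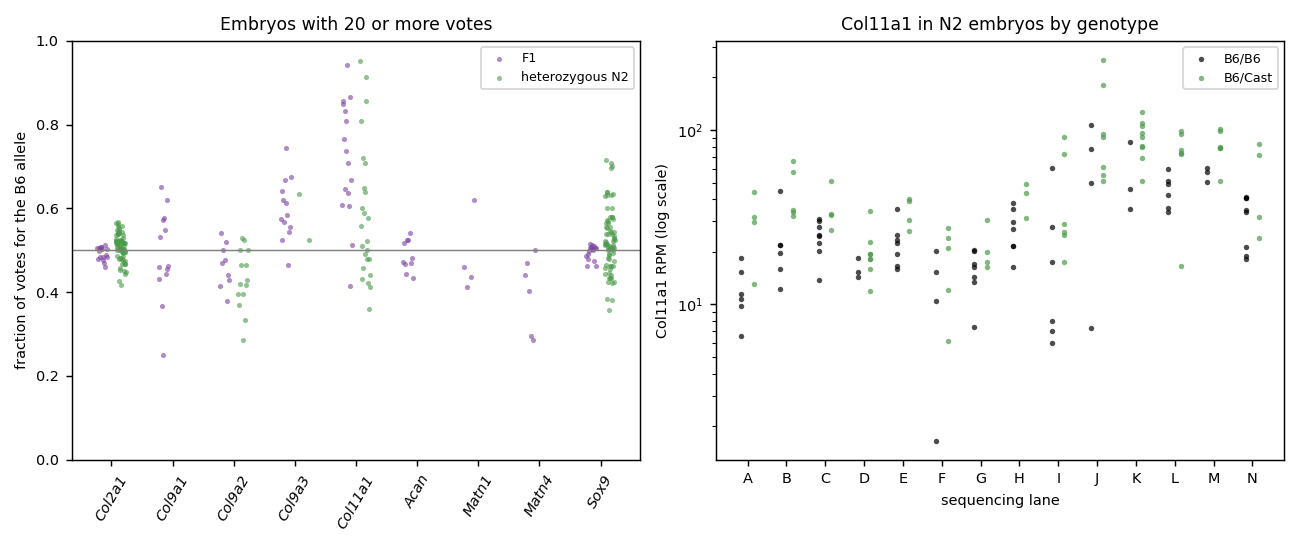
Left, share of votes for the B6 allele in each F1 embryo (purple) and heterozygous N2 embryo (green) with 20 or more votes, for the 9 members with votes; right, RPM of *Col11a1* (log axis) in each N2 embryo by sequencing lane, B6/B6 in black and B6/Cast in green. *Col2a1* and *Sox9* lie around 0.5, *Col11a1* lies mostly above it in F1, and its heterozygotes have the higher median in all 14 lanes.

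No member tested was called for parent-of-origin expression, which needed both F1 crosses to pass with opposite alleles (0.405% of 11598 genes). *Mia1* had no votes and was not tested. *Matn1* (29 votes) and *Matn4* (53 votes) had few votes in CastxB6, so the lack of a call says little for them. In single crosses *Col9a3* passed in B6xCast alone (adjusted p = 1.04e-06), *Col2a1* in CastxB6 alone (adjusted p = 2.25e-07) and *Col11a1* in both with the same allele. These binomial tests take pooled votes as independent and cover counting error only, and over the F1 embryos the paired test gave an adjusted p of 1 for each of these 3 genes. BAF did not move with somite number past q = 0.1 in the 3 members with enough votes, *Col2a1* (rho 0.05, 68 embryos), *Sox9* (-0.03, 70 embryos) and *Col11a1* (-0.05, 24 embryos), beside 0.299% of 3342 genes.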

How the data were processed

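3SEQ reads of single whole embryos were trimmed of poly(A), aligned by the authors with Bowtie2 (version not given in the sources used here) to mm9 and a Cast version of it with RefSeq spliced transcripts, filtered, and deposited as counts of reads on the exons of each gene. Their allele votes, deposited as estimated counts, assign reads over SNPs to B6 or Cast, and a vote table holds NA where no such read was found. N2 genotypes are the authors' calls, made with a hidden Markov model. Each F1 embryo combines 2 sequencing runs, hs1 with gaIIx or, in CastxB6 litter 2, with hs2.

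RPM were computed here as counts over the sum of each table column. RPM are reads per 1000000 reads. Genes that averaged 5 RPM or more were tested. Correlation with somite number (Spearman), mother (Mann-Whitney), allele-specific expression (paired t-test) and parent of origin (binomial test) followed the study's methods. Slopes and litters were tested with edgeR 4.0.16 quasi-likelihood (TMM, Benjamini-Hochberg), with limma 3.58.1 voom and DESeq2 1.42.0 among the alternatives. TMM moved library scaling by 0.008 on the log2 scale per somite and by 0.12 between the B6xCast litters. Allele-specific expression used genes with at least 20 votes in each cross. Genotype used a rank-sum test after lane and somite number were regressed out. Scripts were tested on simulated data.

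Of 168 N2 columns, 8 have no mother in the labels and 6 no genotypes, and these were left out. Members and gene lists were chosen with earlier results of these data known. All 10 members are reported throughout. From each list the text gives counts and at most 4 genes with the smallest p, and outside the members the 10 genes with the highest median rho. *Tcfl5* and *Rab4b* were added as overlapping genes. The 95% intervals of slopes carry the spread between embryos within lanes from the edgeR fit, and take embryos of a litter as independent. Limits for 0 reads cover counting error only.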

Additional observations from a re-analysis of the deposited data

Results flagged for a closer look

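In 3 of the 44 sets of F1 embryos examined (RPM of members by litter, BAF of members by cross), 1 embryo stood apart from the others by Dixon's ratio, which chance gives in about 1 of 20 sets. *Mia1* was at 29.5 RPM in embryo 5 of B6xCast litter 5, against 17.2 in the next, and this embryo had the fewest reads of that litter (15703888). *Col11a1* was at 32.9 RPM in embryo 3 of B6xCast litter 5, against 22.8 in the next, and without that embryo its difference between the B6xCast litters was 0.65 on the log2 scale (adjusted p = 0.0236, edgeR). *Matn1* was at 0.887 RPM in embryo 6 of CastxB6 litter 2, against 0.45 in the next, a value that rests on 17 reads.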

How the results depend on the processing

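No paired analysis was possible because replicate numbers were given in accession order and pair no embryos. The 6 members rising with somite number became 3 over litter means (1.6% of all genes). They were 6 to 7 without single lanes, where 972 to 1841 of all genes rose. With F1 mothers alone and lane regressed out they were 3, and the share of all genes in that setting is not given here. One member fell in flowcell 2 alone (1 of 9, *Col9a1*, rho -0.28, q = 0.0419). Over all genes the falling count ran up to 3478 under the alternatives, so 1 member may be no more than the share of all genes. The 5 members rising in the edgeR slope were 5 to 6 without single lanes, where 467 to 680 of all genes rose. With F1 mothers alone they became 3, and the share of all genes in that fit is not given here. Without the lane term 3 members were steeper with F1 mothers than with B6 mothers, *Col9a1* (-0.33), *Col9a3* (-0.16) and *Col9a2* (-0.15 per somite), the first 2 with the sign reversed. By mother, 1 member (*Col2a1*) was higher with B6 mothers under Benjamini-Hochberg adjustment and 1 (*Col9a3*) with F1 mothers in flowcell 2 alone. Over all genes these counts ran from 0 to 688 and from 0 to 1389 under the alternatives, so 1 member may be no more than the share of all genes. The median rho of member pairs was 0.34 with nothing regressed out. Under Benjamini-Hochberg adjustment, a minimum of 50 votes or one of 100 votes, 1 member (*Col11a1*) was called higher from B6. Over all genes that count ran from 577 to 1480 under the alternatives. Without single embryos the F1 counts of higher members were 4 to 5 in B6xCast, 3 to 4 in CastxB6 and 4 to 5 at the nearest stage. Over all genes they were 333 to 947, 1408 to 2185 and 387 to 870. Of 1170 values of single genes under alternatives, 1056 kept sign and side of the threshold, 22 lost it, 18 gained it, 2 reversed and 72 changed sign with no threshold passed. The causes were not tested. Over all genes, the count rising with somite number was 1408 and ran from 160 to 2032 under the alternatives, and that falling was 798 and ran from 14 to 3478. For the edgeR slope 547 genes rose (67 to 1078) and 476 fell (60 to 1185). Without the lane term 1673 genes were steeper with B6 mothers, against 1 with it, and 2936 with F1 mothers, against 0. Depth limits *Matn1* and *Matn4* in N2, where 0 reads allow 1.31 RPM at the median depth.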
